A study of Mus musculus with 20 samples.

Results

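A list of 38 genes of the unfolded protein response and of the secretory machinery it serves was followed in the livers of mice given IL-1β or saline. The genes were chosen by name: the 38 symbols each match 1 of the 37681 gene rows in every table of counts, and the rule sets no threshold on a measured value, although the list was drawn up with earlier results of these data known. All 38 were among the 15578 genes tested, and 37 of them had reads in the Illumina data aligned with STAR, which is the main table here. The list holds 7 sensors and transcription factors, 2 targets of the PERK branch, 9 chaperones and co-chaperones, 7 genes of disulfide formation, 6 of ER-associated degradation, 4 of entry into the ER, 2 of the COPII coat and the secreted factor Manf.

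The endoplasmic reticulum (ER) folds the proteins that a cell secretes, and the hepatocyte, which makes most plasma proteins, is rich in it. Unfolded protein in the ER is sensed by IRE1, PERK and ATF6. IRE1 splices the mRNA of the transcription factor XBP1, PERK phosphorylates eIF2α and so favours translation of ATF4, and ATF6 is cut in the Golgi to free a transcription factor. The factors so made turn on chaperones, oxidoreductases, degradation and transport genes, which together are called the unfolded protein response.

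The 10 animals were wild-type male C57/B6J mice of 12 weeks, whose strain is also labelled C57/BL6. Of these, 5 received IL-1β, an inflammatory cytokine, at 20 µg/kg and 5 received saline by intraperitoneal injection. The saline mice are called untreated, and all livers were taken 4 h after the injection. RNA of each liver was sequenced on an Illumina HiSeq 2500 and on an Ion Torrent Proton, and aligned with STAR, GSNAP or STAR + Bowtie2, which gives 6 tables of 10 libraries that all measure the same 10 mice. The study compared the 2 platforms, and the present comparison is IL-1β against untreated within a table. Libraries of the main table held 10568530 to 10655860 counts in the treated and 10887640 to 11046256 in the untreated mice, so that every treated library was smaller than every untreated one. Levels are given as CPM, the count of a gene scaled to the size of its library after TMM correction, and differences as log2 fold changes of IL-1β over untreated with their standard errors (SE). Adjusted p-values come from the two-sided quasi-likelihood test of edgeR with Benjamini-Hochberg adjustment over all 15578 genes, and a gene is said to have risen or fallen where the adjusted p was below 0.05. In whole liver, a change in the number of cells that make an RNA and a change in RNA per cell cannot be told apart. Summed hepatocyte markers (10 genes) stood at 93680 to 107500 CPM in the treated and 101600 to 123800 CPM in the untreated mice. Of the 10 genes, 2 rose and 4 fell, against 22.7% and 22.9% of all genes tested, and none was at 0.

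Most of the list rose with IL-1β. In the main table, 33 of 38 members rose, against 22.7% of all genes tested, and 1 fell, against 22.9%. The member that fell was Ern1, which encodes the sensor IRE1α. Creb3l3, Trib3, Ero1lb and Srp54a did not pass the test. The median log2 fold change was 1.05 over the 38 members, 1.07 over the 37 with reads and 0.0 over all genes tested. In 31 members every treated mouse lay above every untreated mouse, a pattern found in 17.6% of all genes, and in 1 member, Ern1, every treated mouse lay below, which held for 16.2% of all genes. The 38 genes together took 2.40% ± 0.484 (SD, n = 5) of the library in treated mice and 1.06% ± 0.240 (SD, n = 5) in untreated mice, a ratio of 2.26. Hspa5 and Hsp90b1, the 2 main chaperones of the ER lumen, held 0.771% of the treated and 0.246% of the untreated libraries.

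**Figure D1:**
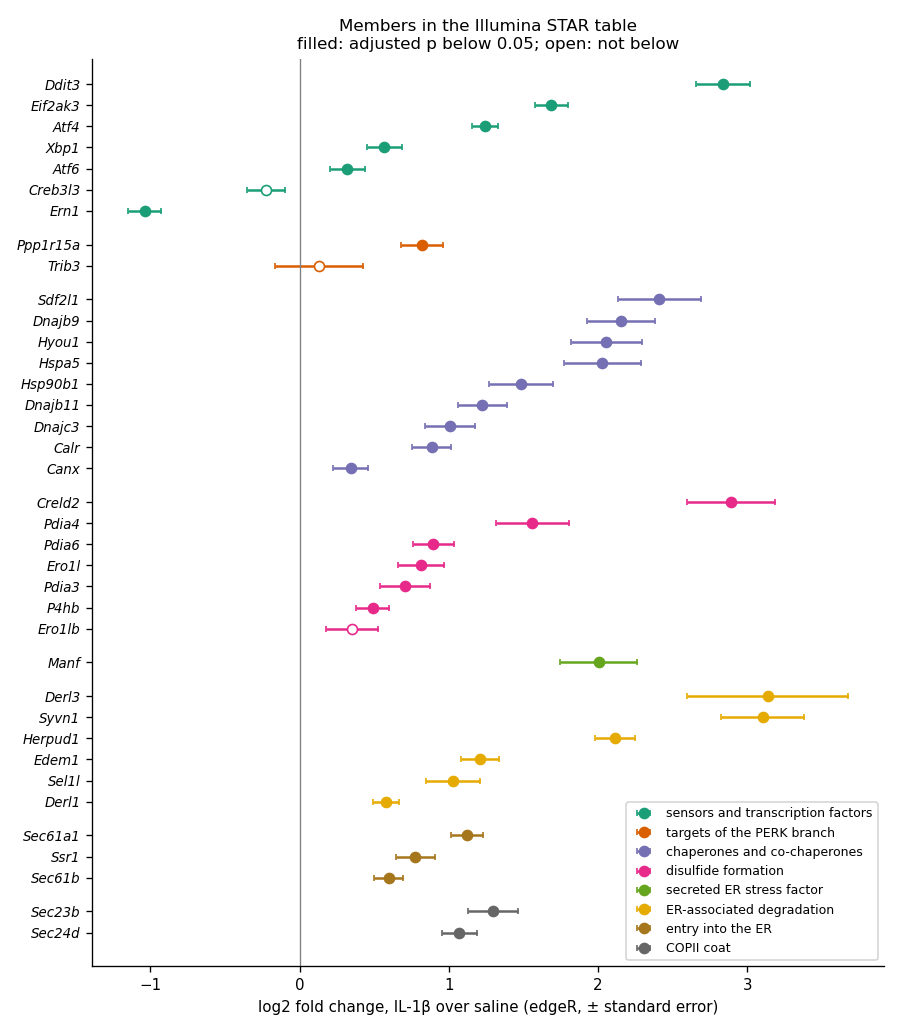
Log2 fold change of IL-1β over untreated (x axis) for the 37 members with reads in the Illumina STAR table, grouped by role, with bars of 1 SE from edgeR. Filled points have an adjusted p below 0.05: 33 lie above 0, Ern1 lies below at -1.04, and the open points are Creb3l3, Trib3 and Ero1lb.

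The sensors moved in different directions. Ern1 (NCBIM37 chr11:106255964-106349166, - strand) encodes IRE1α, the kinase and nuclease that splices Xbp1 mRNA. Its level was 111, 108, 108, 143 and 139 CPM in the untreated mice, labelled UNT_9574, UNT_9575, UNT_9576, UNT_9580 and UNT_9584, in which order untreated values are given throughout. It was 66.2, 51.4, 62.2, 56.8 and 59.8 CPM in the IL-1β mice, labelled ILB_9577, ILB_9578, ILB_9579, ILB_9582 and ILB_9583, likewise in the order used throughout. The groups did not overlap, and Ern1 fell by 1.04 on the log2 scale (SE 0.11, adjusted p = 2.91e-06, edgeR). Eif2ak3 encodes PERK, the sensor that phosphorylates eIF2α. It stood at 17.0, 25.4, 19.1, 17.9 and 20.1 CPM in untreated mice and at 60.5, 67.1, 62.0, 66.4 and 64.2 CPM in treated mice. All treated mice lay within a narrow band far above the untreated ones, and the log2 fold change was 1.69 ± 0.11 (adjusted p = 2.34e-08). Atf6, the third sensor, was at 125, 136, 111, 112 and 145 CPM without and 134, 194, 143, 160.4 and 155 CPM with IL-1β. Its groups overlapped, since 2 untreated mice (UNT_9575 and UNT_9584) were above the lowest treated mouse, and the log2 fold change was 0.32 ± 0.11 (adjusted p = 0.0319). That call was lost in 6 of the 10 fits that leave out 1 mouse, with a log2 fold change of 0.23 without ILB_9578, and in the Ion Torrent STAR table, where the adjusted p was 0.0855.

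Creb3l3 encodes CREBH, a liver factor that, like ATF6, is anchored in the ER membrane and is cut to become active. It was at 298, 289.9, 270.1, 343 and 268 CPM in untreated and 228, 264, 204, 229 and 332 CPM in treated mice. All treated mice but ILB_9583 lay below the untreated range, ILB_9578 only just, while ILB_9583 lay near its top, and the log2 fold change was -0.22 ± 0.13 (adjusted p = 0.172). Without ILB_9583 the log2 fold change was -0.34 (adjusted p = 0.0237).

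Xbp1 is the transcription factor that IRE1α activates. Its mRNA was at 306, 306, 289.7, 384 and 287 CPM in untreated mice and 455, 544, 523, 399 and 411 CPM in treated mice. The lowest treated mouse, ILB_9582, was just above the highest untreated mouse, UNT_9580, and the log2 fold change was 0.57 ± 0.12 (adjusted p = 0.00104). The counts add up both forms of the mRNA, so splicing was not measured. The piece that IRE1α removes is shown because its loss, and not the summed level, sets which protein is made. It spans chr11:5424285-5424310 on the + strand of NCBIM37 (mm9), 26 bases in exon 4, and stands in capitals between 12 bases on either side.
Xbp1, chr11:5424273-5424322: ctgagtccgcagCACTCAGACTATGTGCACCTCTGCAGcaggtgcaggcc

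Atf4 and Ddit3 make up the transcription factors of the PERK branch. Atf4, which drives amino acid and redox genes, was at 84.1, 82.9, 89.8, 74.2 and 78.8 CPM in untreated and 192, 182, 213, 187 and 196 CPM in treated mice. Every treated mouse lay far above every untreated mouse, with a log2 fold change of 1.24 ± 0.09 (adjusted p = 4.15e-08). Ddit3 (chr10:126727830-126733344, + strand) encodes CHOP, a factor linked to cell death under lasting ER stress. It stood at 5.33, 6.47, 5.66, 5.42 and 4.27 CPM without and 45.5, 45.8, 23.8, 35.5 and 43.7 CPM with IL-1β. ILB_9579 was the lowest of its group and still far above all untreated mice, and the log2 fold change of 2.84 ± 0.18 (adjusted p = 1.63e-08) was the largest among the sensors and factors. The exons of Ddit3 overlap those of Mars on the opposite strand over 68 bases.

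Ppp1r15a and Trib3 lie downstream of ATF4 and CHOP. Ppp1r15a encodes GADD34, which directs a phosphatase to eIF2α and so reverses the action of PERK. It was at 12.2, 10.1, 9.61, 14.4 and 12.5 CPM in untreated and 18.2, 17.4, 25.6, 20.9 and 21.6 CPM in treated mice. The groups did not overlap, and it rose by 0.82 ± 0.14 on the log2 scale (adjusted p = 0.000238). In the Ion Torrent tables its groups overlapped and the log2 fold change was smaller, at 0.54 with STAR (adjusted p = 0.0364). Trib3, a pseudokinase induced by CHOP, was low in both groups, at 6.08, 4.42, 1.97, 8.62 and 6.97 CPM without and 6.92, 6.70, 4.67, 4.46 and 7.85 CPM with IL-1β. The treated values lay inside the untreated range, and the log2 fold change was 0.13 ± 0.30 (adjusted p = 0.778). Whether the 2 targets differed in their response was not tested.

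**Figure D2:**
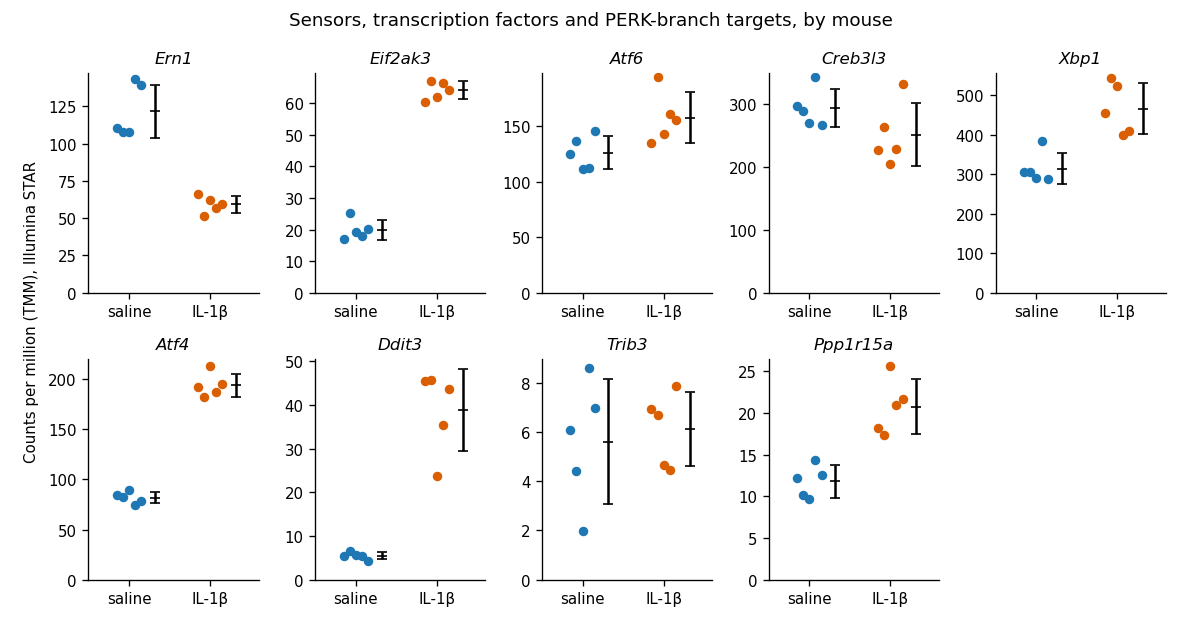
CPM in the Illumina STAR table (y axis, from 0) for the 9 sensors, transcription factors and PERK-branch targets, with 1 point per mouse and the mean ± SD of 5 mice beside the points. Untreated (saline) mice are blue and IL-1β mice orange: Eif2ak3, Atf4, Ddit3, Xbp1 and Ppp1r15a separate upward, Ern1 downward, and Atf6, Creb3l3 and Trib3 overlap.

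All 9 chaperones and co-chaperones rose, with a median log2 fold change of 1.48. Hspa5 (chr2:34627490-34632051, + strand) encodes BiP, the HSP70 of the ER that binds unfolded chains and holds the sensors inactive. It was at 850.3, 2099, 898, 791 and 1181 CPM in untreated and 4660.0, 6928, 4046, 3792 and 4308 CPM in treated mice. UNT_9575 had the highest level of its group and ILB_9578 of its own, without overlap, and the log2 fold change was 2.03 ± 0.26 (adjusted p = 1.37e-05). Sdf2l1, a partner of BiP and its DnaJ proteins, rose most of the 9 in the main table. In each Ion Torrent table Dnajb9 rose more, at 2.35 against 2.18 for Sdf2l1 with STAR. In the main table Sdf2l1 was at 23.1, 47.2, 17.6, 14.8 and 16.6 CPM without and 139, 171, 109.6, 94.7 and 121 CPM with IL-1β. The lowest treated mouse, ILB_9582, was well above UNT_9575, the highest untreated mouse, and the log2 fold change was 2.41 ± 0.28 (adjusted p = 5.39e-06). Hyou1, which exchanges nucleotides on BiP, was at 262, 590.4, 265, 211 and 281 CPM in untreated and 1351, 1737, 1296, 1066 and 1246 CPM in treated mice. Again UNT_9575 and ILB_9578 led their groups, and the log2 fold change was 2.06 ± 0.24 (adjusted p = 6.08e-06).

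Dnajb9, or ERdj4, is a DnaJ protein that returns BiP to IRE1. It was at 53.9, 132, 58.6, 53.9 and 96.5 CPM in untreated and 304, 429, 322, 353 and 349.7 CPM in treated mice. The untreated mice spread from 53.9 to 132 CPM and none reached the treated range, with a log2 fold change of 2.15 ± 0.23 (adjusted p = 2.46e-06). The other DnaJ proteins rose less: Dnajb11 by 1.22 (adjusted p = 2.4e-05) and Dnajc3, the eIF2α kinase inhibitor p58IPK, by 1.01 on the log2 scale (adjusted p = 0.00016). Hsp90b1, the HSP90 of the ER known as GRP94, rose by 1.48 (adjusted p = 4.53e-05), from 1179 ± 341 to 3299 ± 1031 CPM (SD, n = 5). The exons of Hsp90b1 overlap those of 1810014B01Rik on the opposite strand over 415 bases. On the same strand they overlap AC152453.1 over 133 and Gm15344 over 84 bases. The lectin chaperones that bind sugar chains of new glycoproteins were at the lower end. Calr rose by 0.89 (adjusted p = 5.76e-05) and Canx by 0.34 on the log2 scale (adjusted p = 0.0266). Canx was the only chaperone of the 9 whose groups overlapped, and its call was lost in 5 of the 10 fits without 1 mouse, with a log2 fold change of 0.27 without ILB_9578.

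Of the 7 genes of disulfide formation 6 rose, with a median log2 fold change of 0.81. Creld2 (chr15:88650076-88657111, + strand), a secreted and ER-resident protein with isomerase activity, was at 67.1, 144, 49.0, 47.8 and 58.0 CPM in untreated and 549.5, 804, 428, 384 and 545 CPM in treated mice. The groups were far apart although UNT_9575 was above the other untreated mice, and the log2 fold change was 2.89 ± 0.30 (adjusted p = 1.79e-06). Pdia4, the isomerase ERp72, was at 263, 442, 225, 191 and 274 CPM without and 827, 1365, 644, 599 and 679 CPM with IL-1β. ILB_9578 stood above the other treated mice, and the log2 fold change was 1.56 ± 0.24 (adjusted p = 0.0001). The other isomerases rose less. Pdia6 rose by 0.90 (adjusted p = 7.76e-05), Pdia3, which works with calnexin and calreticulin, by 0.71 (adjusted p = 0.00279), and P4hb, the classical isomerase PDI, by 0.49 (adjusted p = 0.00229). Per kilobase of exon, P4hb had the highest level of all members in untreated mice, at 497 CPM per kb, ahead of Hspa5 at 331, Calr at 301 and Hsp90b1 at 292 CPM per kb. With IL-1β, Hspa5 led at 1351 CPM per kb, and Herpud1 (828), Hsp90b1 (818) and P4hb (698 CPM per kb) followed. The ER oxidases reoxidize PDI. Ero1l rose by 0.81 (adjusted p = 0.000534), while Ero1lb had a log2 fold change of 0.35 ± 0.17 (adjusted p = 0.115), which became 0.50 (adjusted p = 0.0197) without UNT_9575 and 0.20 (adjusted p = 0.332) without ILB_9578.

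All 6 genes of ER-associated degradation rose, with a median log2 fold change of 1.66, and the 2 largest changes of the whole list in the main table, Derl3 and Syvn1, were among them. In the Ion Torrent STAR table Syvn1 (2.77) still led, but Derl3 (2.59) came after Creld2 (2.70) and Ddit3 (2.60). Derl3 (chr10:75356143-75358686, + strand), a derlin of the channel through which misfolded proteins leave the ER, was low in untreated liver at 10.4, 16.9, 3.52, 2.13 and 1.58 CPM. It stood at 79.3, 109.8, 36.2, 25.9 and 55.4 CPM in treated mice. No untreated mouse reached the lowest treated mouse, but the spread within both groups was wide, and the log2 fold change of 3.14 ± 0.54 (adjusted p = 0.000219) had the largest SE on the list. Syvn1 (chr19:6046576-6053712, + strand) encodes HRD1, the ubiquitin ligase of this pathway. It was at 82.5, 215, 80.1, 108 and 96.6 CPM in untreated and 1217, 1164, 800.3, 636 and 1179 CPM in treated mice. The lowest treated mouse, ILB_9582, was well above UNT_9575, and the log2 fold change was 3.10 ± 0.28 (adjusted p = 4.57e-07), a fold of 8.59. The exons of Syvn1 and Mrpl49 overlap on opposite strands over 83 bases.

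Herpud1, which organizes the HRD1 complex, was at 424, 574, 366, 386 and 479 CPM without and 1811, 2173, 1769, 1803 and 2102 CPM with IL-1β. The spread within each group was small beside the distance between the groups, and the log2 fold change was 2.12 ± 0.13 (adjusted p = 1.44e-08). Edem1, a mannosidase-like protein that marks glycoproteins for disposal, rose by 1.21 (adjusted p = 2.25e-06). Sel1l, the partner of HRD1, rose by 1.03 (adjusted p = 0.000266) and the derlin Derl1 by 0.58 on the log2 scale (adjusted p = 7.81e-05). Derl1 and Derl3, members of the same small family, were at 43.0 and 5.18 CPM per kb in untreated mice and at 64.3 and 45.9 CPM per kb in treated mice.

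Manf, a small protein of the ER that is secreted under ER stress, was at 71.8, 208, 84.1, 76.6 and 114 CPM in untreated and 435, 602, 419.5, 354 and 409 CPM in treated mice. UNT_9575 was again highest of its group and below all treated mice, and the fold change was 4.01 (adjusted p = 1.6e-05). Of the 4 members for entry into the ER 3 rose. Of the channel through which new chains enter, Sec61a1 rose by 1.12 (adjusted p = 1.11e-06), Sec61b by 0.60 (adjusted p = 0.000143) and the associated Ssr1 by 0.77 (adjusted p = 0.000182). Both COPII genes on the list, which coat the vesicles that leave for the Golgi, rose: Sec23b by 1.29 (adjusted p = 1.85e-05) and the cargo adaptor Sec24d by 1.07 on the log2 scale (adjusted p = 3.36e-06). The exons of Manf overlap those of Vprbp over 146 bases and those of Sec24d overlap Mettl14 over 323 bases, on opposite strands in each case. Ppp1r15a, Pdia3, Pdia4 and Pdia6 have shorter overlaps with other genes, of 12 to 50 bases.

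Srp54a, the signal recognition subunit that binds signal peptides, cannot be read from the main table. It had 0 reads in all 10 libraries with STAR on both platforms, where up to 3 reads over a group are allowed by counting error. With GSNAP it had 947 reads over the treated and 538 over the untreated Illumina libraries (log2 fold change 0.99, adjusted p = 3.21e-05), and 602 and 330 on Ion Torrent (1.02, adjusted p = 0.000316). With STAR + Bowtie2 it had 8 and 8 reads on Illumina and 627 and 364 on Ion Torrent (0.93, adjusted p = 0.00334). Its near copy Srp54c had 570 and 320 reads and Srp54b 49 and 31 reads in the main table. With GSNAP the Illumina libraries had 1069 and 652 reads for Srp54c and 105 and 57 for Srp54b. The reads given to these near copies thus depend on the aligner, for a reason that was not tested, and the value of Srp54a is uncertain.

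**Figure D3:**
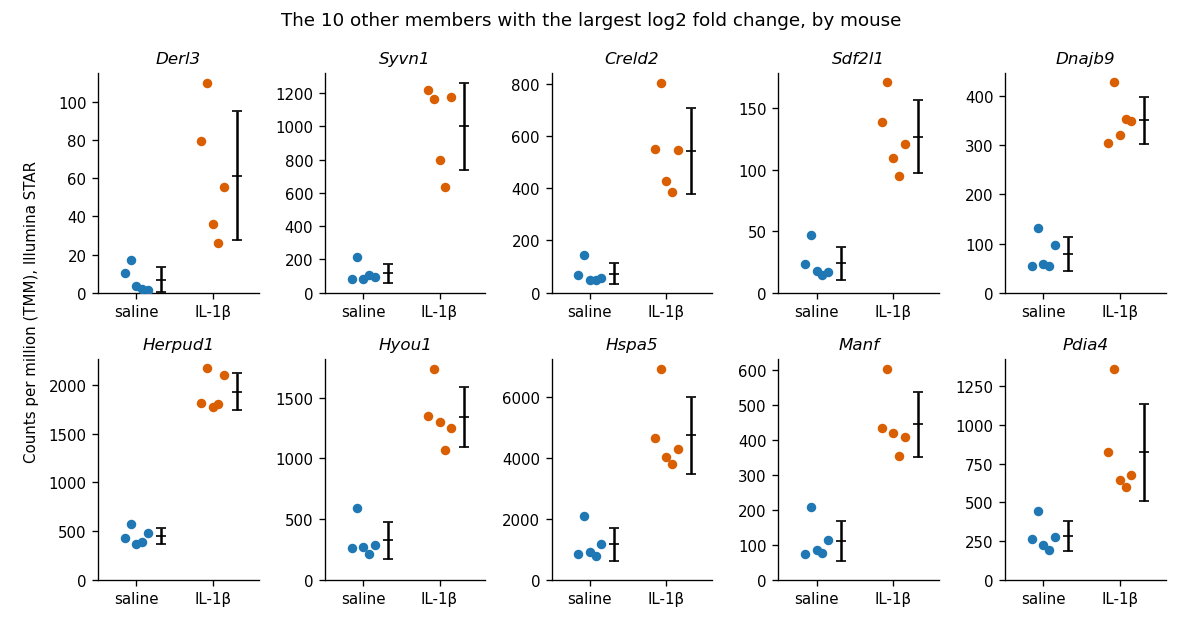
CPM in the Illumina STAR table (y axes, from 0, one scale per gene) for the 10 members outside the sensors, factors and PERK targets with the largest log2 fold change, with 1 point per mouse and the mean ± SD of 5 mice. In each gene the IL-1β mice (orange) lie above all untreated (saline, blue) mice, from Derl3 (log2 fold change 3.14) to Pdia4 (1.56).

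The promoters of the members were searched because their genes moved together and because ATF6 and XBP1 are known to bind the ER stress response element, ERSE. RefSeq promoters (GRCm38.p6, 250 bases before to 50 after each start) were at hand for 33 of the 38 members and 27025 genes, and not for Atf6, Hyou1, Manf, Derl1 and Sec61a1. On either strand, ERSE was searched as CCAAT, 9 bases of any kind and CCACG, and ERSE-II as ATTGG, 1 base of any kind and CCACG. ERSE letters were in 10 of the 33 member promoters and in 0.137% of all genes (37 genes). The members were chosen by name as genes of the response that ATF6 and XBP1 drive. A larger share among them thus follows at least in part from that choice and is no independent result. Of those 10 members, 9 rose and the other was Ero1lb, beside 33 risen of all 38 members. ERSE-II letters were in Dnajb11 and Herpud1 and in 0.0444% of all genes. The 8 promoters shown here were chosen to show members with large changes (Hspa5, Hsp90b1, Creld2, Syvn1, Derl3, Herpud1) beside members with small or uncalled changes (Canx, Ero1lb). Coordinates are GRCm38.p6, each sequence runs 5′ to 3′ on the strand of its gene, and capitals mark the fixed letters of ERSE, which read CGTGG and then ATTGG where the element is reversed, or of ERSE-II in Herpud1.
Hspa5, chr2:34772010-34772058, + strand: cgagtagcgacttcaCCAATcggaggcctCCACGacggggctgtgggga
Hsp90b1, chr10:86705518-86705671, - strand: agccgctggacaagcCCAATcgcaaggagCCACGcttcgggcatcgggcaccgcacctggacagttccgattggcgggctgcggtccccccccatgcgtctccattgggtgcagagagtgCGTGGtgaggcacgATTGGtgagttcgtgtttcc
Creld2, chr15:88819505-88819553, + strand: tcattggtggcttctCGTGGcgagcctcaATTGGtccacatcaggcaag
Syvn1, chr19:6046517-6046565, + strand: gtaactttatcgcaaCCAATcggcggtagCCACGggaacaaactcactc
Derl3, chr10:75893227-75893275, + strand: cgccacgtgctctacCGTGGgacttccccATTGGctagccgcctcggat
Herpud1, chr8:94386362-94386402, + strand: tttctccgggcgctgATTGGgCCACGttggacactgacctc
Canx, chr11:50325785-50325833, - strand: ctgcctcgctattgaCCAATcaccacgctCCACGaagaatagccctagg
Ero1lb, chr13:12565667-12565715, + strand: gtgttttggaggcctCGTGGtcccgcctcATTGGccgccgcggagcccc

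Genes with like elements changed by very different amounts. The stretch shown for Hspa5 runs from 80 to 32 bases before the start and that for Canx from 160 to 112, and Hsp90b1 holds 2 matches, 1 in each direction. The 12 members with ERSE or ERSE-II had a median log2 fold change of 1.35 (0.34 to 3.14) and the 21 with a promoter and neither had 0.82 (-1.04 to 2.84), with wide overlap. The 21 include Srp54a, which had no reads in the main table and was entered as no change. Of the 10 tested genes outside the list with ERSE letters, 2 rose (Alg12 and Pan2, by 1.43 and 0.56) and 1, Acacb, fell by 0.90. Of 4 such genes with ERSE-II, 3 rose and 0 fell. Among all genes tested 22.7% rose and 22.9% fell, and an effect of the elements was not tested. The letters TGACGTGG, the XBP1 element UPRE, were in Sec24d among the members and in 0.714% of all genes, and TGATGNAA, the element CARE bound by ATF4 and CHOP, in Herpud1 and Trib3 and in 4.51% of all genes. Of 93 tested genes outside the list with UPRE letters, 43 rose and 18 fell. Of 267 with CARE letters, 80 rose and 74 fell. An effect of UPRE or CARE was not tested either. UPRE ends in CGTGG, which is the complement of the CCACG of ERSE read backwards, so the motifs share letters. A match describes the letters of a window and not binding, and a promoter without a match may carry the element elsewhere.

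The members varied together between mice of the same group. UNT_9575 had the highest level of its group in 29 of the 37 members with reads, against 18.5% of the 11929 genes whose mean count was 10 or more. ILB_9578 had the highest level in 29 of 37, against 24.8% of genes, and UNT_9580 the lowest in 22 of 37, against 25.7%. In log2 CPM, UNT_9575 lay above the mean of the other 4 untreated mice by a median of 0.45 over the members (-0.24 to 2.15) and 0.02 over all these genes. ILB_9578 lay above the other 4 treated mice by 0.37 (-0.30 to 1.27), against -0.01 over all genes. The members in which UNT_9575 was not the highest were Ern1, Atf6, Creb3l3, Xbp1, Atf4, Trib3, Ppp1r15a and Sec61b, which include most of the sensors, factors and PERK targets. For ILB_9578 they were Ern1, Creb3l3, Atf4, Trib3, Ppp1r15a, Syvn1, Sec61a1 and Sec61b.

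The same mice led with Ion Torrent libraries of the same RNA, where UNT_9575 was highest of the untreated in 30 of 37 members and ILB_9578 of the treated in 25 of 37. The median log2 fold change of the 38 members was 1.17 without UNT_9575 and 0.95 without ILB_9578, and the count of members that rose was 34 and 31. The share of the library taken by the members was 1.46% in UNT_9575, above 0.840% to 1.06% in the other untreated mice, and 3.20% in ILB_9578, above 1.99% to 2.45% in the other treated mice. Summed neutrophil markers were at 3.75 CPM in UNT_9575, inside the untreated range of 2.04 to 6.16, and at 109.8 CPM in ILB_9578, the highest of the treated mice (50.1 to 109.8). They were nearly as high, at 101.6 CPM, in ILB_9582, which had the lowest level of its group in 16 of 37 members. The part of those cells in the levels of ILB_9578 was not tested.

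**Figure D4:**
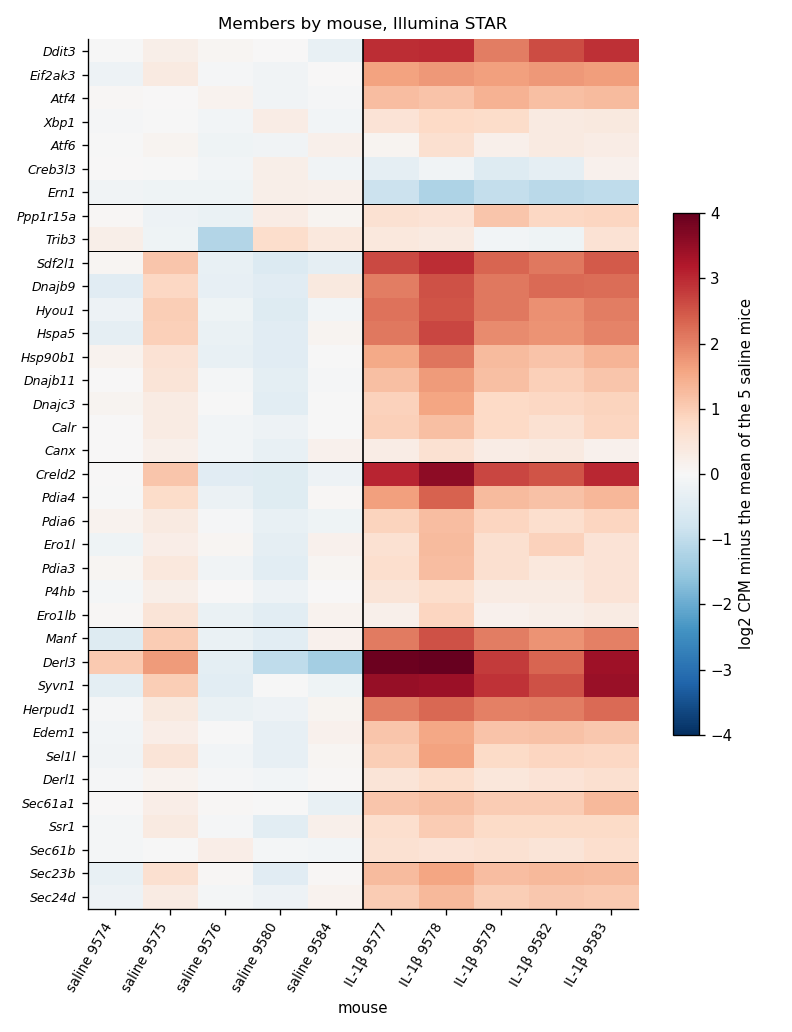
Log2 CPM minus the mean of the 5 untreated mice (colour, scale stopping at -4 and 4) for the 37 members with reads (rows, grouped by role) in each of the 10 mice of the Illumina STAR table. UNT_9575 is redder than its group in most rows below the sensors, ILB_9578 is the darkest of the treated mice in many, and Ern1 is blue in all 5 treated mice.

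The other 5 tables, made from the same mice and the same RNA, gave counts close to these. With GSNAP on Illumina 34 members rose and 1 fell, against 23.7% and 23.9% of all genes. With STAR + Bowtie2 on Illumina 33 rose and 1 fell, against 22.9% and 24.4%. On Ion Torrent, 32 rose and 1 fell with STAR (20.3% and 21.8% of all genes), 34 rose and 2 fell with GSNAP (22.5% and 23.9%), and 34 rose and 2 fell with STAR + Bowtie2 (22.8% and 24.0%). The second member that fell was Creb3l3, by 0.35 in each of those 2 tables (adjusted p = 0.0487 and 0.0468). In the 3 tables where 34 rose, Srp54a was among them.

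The platform-by-treatment term asks whether the effect of IL-1β differed between platforms. With STAR and the mouse as a block, 0 of the 38 members passed at an adjusted p below 0.05 in edgeR, against 0.00642% of all genes (1 gene), and limma-voom gave 0 as well. At an unadjusted p below 0.05 there were 6 members, and 7.0% of all genes. The log2 fold change on Ion Torrent minus that on Illumina ran from -0.52 for Derl3 (SE 0.14, adjusted p = 0.653) to 0.19 for Ero1l. Derl3, Hyou1, Syvn1, Sdf2l1, Sec61a1 and Creld2, the 6 with the lowest p, all had smaller changes on Ion Torrent. Syvn1, for example, had 3.10 on Illumina and 2.77 on Ion Torrent.

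Genes of the same pathways outside the list were counted in the same way. Of 146 further genes listed by function, 139 were tested, and 89 rose, 12 fell and 38 did not pass, with a median log2 fold change of 0.47, against 22.7% risen and 22.9% fallen among all genes tested. The targets of ATF4 and CHOP had the highest median, 1.22, with 14 of 18 risen and 1 fallen. Among them Mthfd2, a mitochondrial folate enzyme, rose from 1.76 ± 0.576 to 46.2 ± 6.44 CPM (SD, n = 5), a log2 fold change of 4.70 (adjusted p = 9.78e-11). Cth, which makes cysteine, fell by 0.68 (adjusted p = 0.00328). Of 14 other sensors and regulators 11 rose and 0 fell, from Eif2ak4, the kinase GCN2 (0.32, adjusted p = 0.0421), to Creb3l1, a membrane-bound relative of ATF6 (3.15, adjusted p = 1.75e-06), which was at 0.566 CPM in untreated and 5.16 CPM in treated mice.

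N-glycosylation and entry into the ER followed. Of 20 N-glycosylation genes 13 rose and 3 fell. Gfpt1, the first enzyme of the hexosamine pathway, rose by 1.77 (adjusted p = 9.58e-07) and Tusc3, an oligosaccharyltransferase subunit, fell by 0.49 (adjusted p = 0.0243). Of 20 translocon, signal recognition and signal peptidase genes 15 rose and 0 fell, from Srp14 (0.24, adjusted p = 0.0431) to the receptor subunit Srprb (1.55, adjusted p = 1.21e-06), whose symbol stands on 2 rows, of which the row with more reads was used.

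Transport, degradation and folding genes outside the list also went both ways. Of 26 COPII and ER-Golgi genes 18 rose and 4 fell. Sar1b, a small GTPase that starts COPII assembly, fell by 0.93 (adjusted p = 8.33e-06), while Sar1a of the same family rose by 0.77 (adjusted p = 9.15e-05). The retrieval receptor Kdelr3 had 1.52 at under 1 CPM in both groups (adjusted p = 0.0393). Of 19 degradation genes 11 rose and 2 fell, from the ligase Rnf139 at -0.38 (adjusted p = 0.0056) to the conjugating enzyme Ube2g2 at 1.54 (adjusted p = 1.21e-07). Of 22 other ER chaperones and oxidoreductases 7 rose, 2 fell and 13 did not pass, with a median of 0.16, beside 22.7% of all genes risen and 22.9% fallen. Txndc11 rose by 1.42 (adjusted p = 1.04e-07) and Tmx2, also of the thioredoxin family, fell by 0.48 (adjusted p = 0.00103).

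**Figure D5:**
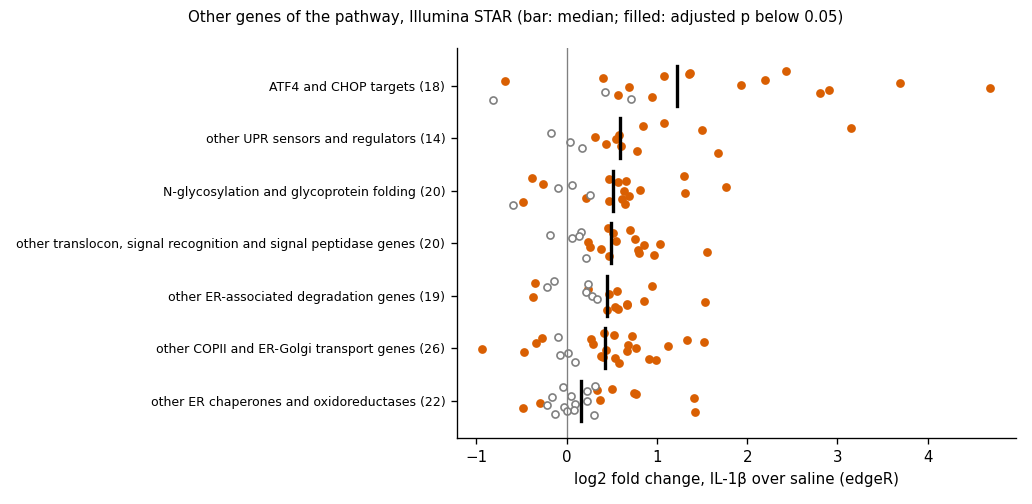
Log2 fold change of IL-1β over untreated (x axis) in the Illumina STAR table for 139 pathway genes outside the list, in 7 lists (rows, number of genes in brackets), with 1 point per gene, filled where the adjusted p was below 0.05, and a bar at the median. The medians run from 1.22 for ATF4 and CHOP targets to 0.16 for other ER chaperones and oxidoreductases.

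Markers of other cell types moved beside the members. All 7 neutrophil markers tested of 11 rose, with a summed level of 50.1 to 109.8 CPM in treated and 2.04 to 6.16 CPM in untreated mice. A gene could enter the test through the 5 treated libraries alone. That all the neutrophil markers tested rose is therefore partly set by the filter. Plasma cells are rich in the same secretory genes. Of 7 plasma and B cell markers with a gene row, 5 were tested, of which 0 rose and 1 fell. Their summed level was 211 to 282 CPM in treated and 162 to 254 CPM in untreated mice, so that the ranges overlapped. Which of the 5 genes made up the sum was not examined, so it is no measure of the number of these cells. Of the markers tested, 1 of 8 Kupffer cell, 2 of 7 endothelial, 0 of 6 stellate and 0 of 3 T cell markers rose, and 3, 3, 3 and 1 fell, beside 22.7% and 22.9% of all genes tested. No marker tested was at 0 in all 10 libraries. The part of these cells in the levels of the members was not tested.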

How the data were processed

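The values deposited by the authors are whole-number counts per gene in 6 tables of 10 libraries. Per the paper's methods, reads were aligned to mm9 with STAR 2.5.1b, GSNAP or STAR + Bowtie2 2.2.9. PORT then removed rRNA and mitochondrial reads, drew all libraries of a table down to the same depth and counted Ensembl gene models. The totals of gene counts as deposited still differ between libraries, and TMM factors were added here. All 60 count columns were used, and each table was fitted on its own.

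A gene was tested if 5 or more libraries of some table held 5 or more of its reads (15578 genes). The test was that of edgeR 4.0.16 (glmQLFit, glmQLFTest, two-sided, Benjamini-Hochberg, adjusted p below 0.05) in R 4.3.3. The platform-by-treatment term used the 2 tables made with 1 aligner and a block for each mouse, since the labels give each mouse's number on both platforms. The 2 libraries of a mouse, as deviations from their group means, correlated at 0.59 to 0.74 for 9 mice and 0.249 for UNT_9584 (10543 genes). The p-values measure the spread between mice of 1 experiment, and counts limit precision only for low genes. Intervals for 0 counts cover counting error only.

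Values per mouse are given for the sensors, factors and PERK targets and for the 10 other members with the largest absolute log2 fold change. From each further list the highest and the lowest gene that passed are named. Members and lists were chosen with earlier results of these data known. The symbols Vimp, Mia3 and Mzb1 matched no row. Positions and exons are GENCODE M1 on NCBIM37. Promoters are RefSeq, GRCm38.p6. Alternatives were DESeq2 1.42.0, limma-voom (limma 3.58.1), a rank test on counts without TMM, edgeR with no TMM, other filters, a log2 limit of 1 and leaving out each mouse. The fits were first tested on simulated data with 200 changed genes of 15578, each changed by 1.5 on the log2 scale. All 200 were recovered by edgeR, limma-voom and DESeq2, with 9, 8 and 25 false calls, and 0 by the rank test. The platform-by-treatment term recovered 197, with 11 false calls. There the change of 1.5 was put on 1 platform only, and no effect of the mouse was shared between platforms. The differences of the members with STAR ran only from -0.52 to 0.19, so this recovery does not show how well such small differences would be found.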

Additional observations from a re-analysis of the deposited data

Results flagged for a closer look

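In each group of 5 mice the highest and the lowest value of every member were checked for a gap to the rest, and 14 of 74 groups had a mouse far from the others. Among independent groups about 1 in 20 would be flagged. The members come from the same mice and varied together, so that rate is no measure for these 14. Of the 14, ILB_9578 accounted for 8 and UNT_9575 for 4. ILB_9578 stood high for Hspa5 at 6928 CPM (others 3792 to 4660), Dnajb11 at 394 (236 to 281), Dnajc3 at 1061 (616 to 665) and Pdia3 at 1348 CPM (776 to 917). It also stood high for Ero1lb at 214 CPM (132 to 146), Edem1 at 632 (458 to 491), Sel1l at 696 (387 to 452) and Sec23b at 209 CPM (163 to 169.6). UNT_9575 stood high for Hyou1 at 590.4 CPM (211 to 281), Sdf2l1 at 47.2 (14.8 to 23.1), Creld2 at 144 (47.8 to 67.1) and Syvn1 at 215 CPM (80.1 to 108). The others were Xbp1 in UNT_9580 at 384 CPM (287 to 307) and Sec61b in UNT_9576 at 36.0 CPM (27.3 to 29.4).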

How the results depend on the processing

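The count of 33 members that rose was 33 with DESeq2 and limma-voom, 28 with the rank test, 31 without TMM, 32 to 34 in the other tables, 31 to 34 when 1 mouse was left out and 21 with an absolute log2 fold change above 1. The count of 1 that fell became 2 without TMM, 2 in the Ion Torrent GSNAP table, 2 in the Ion Torrent STAR + Bowtie2 table and 1 to 2 when 1 mouse was left out. Each time Creb3l3 was added, which without TMM was at -0.36 (adjusted p = 0.0308). Members without overlap (32) numbered 29 without TMM. Leaving out a mouse can hardly make separate groups overlap and is no check of that count. Of the other pathway genes, 89 rose and 12 fell. With a log2 limit of 1 these were 25 and 0, the rank test gave 61 and 20, no TMM gave 75 and 21, and leaving out 1 mouse gave 82 to 89 and 9 to 12. The cause was not tested. Omitting TMM moved the median of 11929 genes from 0.00 to -0.12 on the log2 scale, and the share of higher among all calls from 49.8% to 38.8%. Of all 15578 genes tested, 2746 rose and 4335 fell without TMM, against 3541 and 3575 with it. Atf6 (adjusted p = 0.175) and Canx (adjusted p = 0.158) then lost their calls. The rank test was run on counts without TMM, so it changed the test and the scaling together. Besides Atf6 and Canx it lost Xbp1, P4hb and Pdia3, each at an adjusted p of 0.0722. No member called in the main table changed direction under these alternatives. For the other tests, the log2 limit and the fits without 1 mouse, counts over all genes are not given here. The same holds for the count without overlap when TMM was omitted. Those counts of members and pathway genes therefore cannot be set against all genes.

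With the mouse as a replicate block, 0 members had a platform-by-treatment term, and 0 without the block, with the other aligners and without each mouse. Mouse numbers do not pair treated with untreated mice, so no block was possible between treatments. Depth limits members with few reads most, such as Trib3, with 631 reads over the 10 libraries of the main table.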
